A study of Mus musculus with 14 samples.

Results

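Genes of fatty acid uptake and intracellular fatty acid transport were followed while cultured preadipocytes became fat cells. The list held 9 genes chosen by their known roles, namely Lpl, Vldlr, Cd36, Slc27a1, Slc27a4, Fabp4, Fabp5, Acsl1 and Acsl4, out of 18193 genes that the arrays measure with a probe set of 1 symbol. Such a probe set was found for 8 of the 9, and all 8 were among the 8682 genes that passed the filter on low intensity. Acsl1, a long-chain acyl-CoA synthetase, was not analysed here. The cells were 3T3-L1, a mouse fibroblast line committed to the fat cell lineage, and both arms were grown to confluence and then differentiated with insulin, dexamethasone and isobutylmethylxanthine for 48 h and with insulin alone afterwards. The Empty arm had been transduced with a control retrovirus. The SETD5 arm had been transduced with a retrovirus carrying SETD5, which per the study's methods bore a V5 tag and was driven by a weak viral promoter. SETD5 is a SET domain protein found with corepressors of transcription, and the comparison of the arms asks which mRNAs differ when it is supplied during differentiation. RNA taken at 0, 12, 24, 36, 48, 96 and 192 h was hybridised to Affymetrix mouse expression arrays. There were 14 arrays, 7 for each virus, and no hour had a replicate. Each arm is 1 transduced line, so SETD5 and any other difference between the lines cannot be told apart.

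Fat cells take up fatty acids that lipoprotein lipase (LPL) releases from circulating triglyceride particles, which receptors such as the VLDL receptor help to hold at the cell surface. CD36 and the fatty acid transport proteins (Slc27 family) carry fatty acids through the plasma membrane, small fatty acid binding proteins (FABPs) ferry them through the cytosol, and acyl-CoA synthetases (Acsl family) trap them as CoA esters. Several of these genes are classical targets of PPARγ, the nuclear receptor that drives fat cell differentiation, and Fabp4, also called aP2, is among the best known markers of the mature fat cell.

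Levels are the deposited array intensities, on a linear scale on which the trimmed mean of each array is 100. Differences are log2(intensity + 16), SETD5 minus Empty at the same hour, with the standard error (SE) of limma and a Benjamini-Hochberg adjusted p over all 8682 genes; a gene was called at an adjusted p under 0.05. Folds taken from these differences understate the change of dim genes. Early hours were 0, 12 and 24 h and late hours were 36, 48, 96 and 192 h. In tests of the virus difference and of the change within an arm, hours stand in for replicates. Each of these asks whether a difference is larger than its spread between hours. In tests against 0 h the arms stand in for replicates, so a virus difference that changes with the hour widens the SE. Neither spread need be that between separate cultures.

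The Setd5 probe set gave a difference over all hours of -0.03 ± 0.06 (SE, n = 7 hours, adjusted p = 0.788), and where it lies on the transgene was not tested, so it does not check the labels. Pparg was lower in the SETD5 arm in the late hours (-1.51 ± 0.25, SE, n = 4 hours, adjusted p = 0.00893). The 4 fat cell markers with a probe set (Adipoq, Cidec, Retn and Lep) summed to 5.3 at 0 h and 16113 at 192 h with Empty, and to 6.3 and 6801.8 with SETD5, so they moved with the results below; their part in those results was not tested. Lep alone stayed under 50 on every array. In such bulk RNA, fewer fat cells and less mRNA per fat cell cannot be told apart. Fibroblast markers were bright on every array (sums of 15042 to 21266), while no macrophage or endothelial marker reached an intensity of 50 on any array (0 of 12 genes).

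Lpl, the secreted lipase, was already bright before differentiation. With Empty its intensities were 1457.9, 1586.6, 1123.2, 3806.2, 5379, 6123.4 and 6646.6 at 0, 12, 24, 36, 48, 96 and 192 h. With SETD5 they were 1649.5, 1881, 1333.8, 3599.5, 3997.2, 3590.7 and 6037.8. Both arms stepped up between 24 and 36 h, after which Empty went on climbing and SETD5 stayed level until 96 h and then rose to near the Empty value. Against 0 h over both viruses Lpl was higher from 36 h on, by 1.25 ± 0.23 at 36 h (SE, n = 2 arrays per hour, adjusted p = 0.00296) and by 2.02 ± 0.23 at 192 h (adjusted p = 0.000383). The late virus difference was -0.35 ± 0.11 (SE, n = 4 hours) and did not pass the threshold (adjusted p = 0.0676, 95% interval -0.61 to -0.10), although SETD5 was below Empty at 4 of 4 hours. With late hours taken as 96 and 192 h alone it passed (-0.45, adjusted p = 0.0487), and without the 36 h pair too (-0.44, adjusted p = 0.0308).

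Vldlr, the receptor that binds triglyceride-rich particles, rose during differentiation without a difference between the arms that could be detected. Its intensities with Empty were 831.3, 432.6, 816.5, 1369.1, 1492.8, 1750.2 and 1301.6 over the 7 hours. The SETD5 arm gave 924.4, 481.3, 789.7, 1248.8, 1470, 1622.3 and 1434.9. Both series dipped at 12 h and peaked at 96 h, and the arms lay close together at every hour. Over both viruses Vldlr was lower than at 0 h at 12 h (-0.92 ± 0.12, adjusted p = 0.000179, n = 2 arrays per hour, limma) and higher at 36, 48, 96 and 192 h, with the largest difference at 96 h (0.93 ± 0.12, adjusted p = 0.000704). The late virus difference was -0.03 ± 0.08 (SE, n = 4 hours, adjusted p = 0.823), with a 95% interval of -0.21 to 0.15.

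Cd36, the scavenger receptor and fatty acid translocase, went from background to bright. With Empty its intensities were 0.7, 2.4, 1.6, 11.8, 117, 1163.3 and 4403.1. The SETD5 values were 1.4, 4.7, 0.4, 6.3, 36.2, 239.5 and 1041.8. Of the 14 arrays 5 reached 50, the Empty arrays from 48 h on and the SETD5 arrays at 96 and 192 h, and the SETD5 value at 192 h was still below the Empty value at 96 h. SETD5 stood at 30.9%, 20.6% and 23.7% of Empty at the last 3 hours. The late difference was -1.48 ± 0.25 (SE, n = 4 hours, adjusted p = 0.00948, lower at 4 of 4 hours), and its size grew from -0.32 at 36 h, where both arms were under 50, to -2.21 at 96 h.

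The promoter of Cd36 is shown because Cd36 is the 1 gene of the 3 called lower for which the RefSeq promoter table held a sequence; that of Slc27a4, a fatty acid transport protein whose level barely moved, stands beside it. Both are the 250 bases before a gene start in build GRCm38.p6, chr5:17835897-17836146 on the minus strand for Cd36 and chr2:29802384-29802633 on the plus strand for Slc27a4. Capitals mark every match, on either strand, to AGGTCA (the core motif of nuclear receptors, read as TGACCT on the other strand) or GGGCGG (a GC box). No matches overlapped.
Cd36: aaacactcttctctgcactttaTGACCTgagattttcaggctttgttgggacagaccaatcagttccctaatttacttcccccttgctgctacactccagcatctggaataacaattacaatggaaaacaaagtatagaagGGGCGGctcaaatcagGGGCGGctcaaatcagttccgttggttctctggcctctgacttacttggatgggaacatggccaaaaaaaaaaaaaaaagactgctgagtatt
Slc27a4: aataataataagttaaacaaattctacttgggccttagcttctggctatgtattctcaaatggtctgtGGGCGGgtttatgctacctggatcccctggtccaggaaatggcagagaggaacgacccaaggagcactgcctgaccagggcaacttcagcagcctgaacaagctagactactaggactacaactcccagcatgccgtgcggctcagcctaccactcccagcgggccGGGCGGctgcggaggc
The Cd36 window held a core motif on the strand opposite to the gene, 228 to 223 bases before the start. It also held a GC box inside each copy of a repeated stretch, 109 to 104 and 93 to 88 bases before the start. The Slc27a4 window held GC boxes alone, 182 to 177 and 16 to 11 bases before the start. Of the 32851 promoters of the table cut to the same length, 14% held AGGTCA and 32.7% held GGGCGG. The C/EBP motif TTGCNNAA was found in neither window and in 9.56% of all. Such matches describe the letters and are not evidence that a factor binds there.

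Slc27a1 and Slc27a4 (fatty acid transport proteins, FATP1 and FATP4) were dim throughout, so their differences rest on intensities close to the filter. Slc27a1 reached 50 on 6 arrays, with intensities of 55, 8.8, 10.2, 20.2, 44, 55 and 119.2 for Empty and 54.1, 9.6, 12.2, 26.1, 25.8, 50 and 70 for SETD5. Both arms dropped to under 10 at 12 h and were back above 50 at 192 h. Against 0 h it was lower at 12, 24 and 36 h over both viruses (-1.49 ± 0.20 at 12 h, SE, n = 2 arrays per hour, adjusted p = 0.000275), and the late virus difference of -0.27 ± 0.13 was not called (adjusted p = 0.200, 95% interval -0.56 to 0.03). Slc27a4 stayed between 50.7 and 74.9 with Empty and between 45.4 and 79.9 with SETD5. It was called at no hour against 0 h and its late difference was -0.03 ± 0.13 (adjusted p = 0.885, 95% interval -0.32 to 0.26).

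Fabp4, the adipocyte fatty acid binding protein, rose from background in both arms. With Empty its intensities were 32.2, 19.6, 36.3, 809.4, 4435.7, 7525.7 and 9162. In the SETD5 arm they were 24.4, 16.2, 11.4, 220, 1268.5, 3627.9 and 6296.7. SETD5 was lower at all 7 hours, although both arms were under 50 until 24 h, and the SETD5 value at 192 h lay between the Empty values at 48 and 96 h. Over both viruses Fabp4 was called higher than at 0 h from 36 h on (3.32 ± 0.38 at 36 h, SE, n = 2 arrays per hour, adjusted p = 0.000209) and by 192 h the difference was 7.43 ± 0.38 (adjusted p = 8.6e-06). The late virus difference was -1.30 ± 0.21 (SE, n = 4 hours, adjusted p = 0.00845). Over all 7 hours it was -0.93 ± 0.20 (adjusted p = 0.0404), and this call was lost when the 24, 36, 48 or 96 h pair was left out (adjusted p of 0.0927, 0.0961, 0.111 and 0.110).

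Fabp5, the epidermal fatty acid binding protein, which preadipocytes also express, was bright from the start. With Empty its intensities were 1467.7, 614.1, 701.4, 2556.2, 6353.5, 6165.4 and 6196. With SETD5 they were 1699.7, 892.6, 765.2, 1094.6, 2764.4, 2569 and 2535.1. SETD5 was the higher arm at 0, 12 and 24 h and the lower arm at every later hour, both arms reached a plateau at 48 h, and the SETD5 plateau lay near the Empty value at 36 h. SETD5 stood at 42.8%, 43.5%, 41.7% and 40.9% of Empty at 36, 48, 96 and 192 h. The late difference was -1.24 ± 0.09 (SE, n = 4 hours, adjusted p = 0.000676), which gave it the lowest p of all 8682 genes, and the early difference of 0.29 ± 0.10 was not called (n = 3 hours, limma adjusted p = 0.584). Late minus early, the difference moved by -1.52 ± 0.13 (adjusted p = 0.0048). It was the 1 gene called lower in that test, 0.0115% of the genes tested. Leaving out the arrays of 0 h ended that call (adjusted p = 0.0568). RefSeq also lists a Fabp5 pseudogene, and whether the probe sets tell it from the gene was not tested.

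Fabp5 and Fabp4 lie in 1 cluster of FABP genes on chromosome 3, with Pmp2 and Fabp9 between them and Fabp12 beside Fabp4. These 3 neighbours, which encode FABPs of myelin, testis and other tissues, stayed under 50 on every array, with highest intensities of 1.4 for Pmp2, 6.1 for Fabp9 and 16.1 for Fabp12.

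Acsl4, an acyl-CoA synthetase that prefers arachidonic acid, was highest at 12 h and lowest at 192 h in both arms. With Empty its intensities were 336.8, 991.3, 503.2, 546, 476.3, 382.1 and 223. The SETD5 arrays gave 302.6, 968.3, 544.1, 512.6, 704.7, 561.6 and 218.3. On this brightest probe set the arms lay together except at 48 and 96 h, where SETD5 was at 148% and 147% of Empty. The other probe sets gave 140% and 141% at 36 h, 170% and 137% at 48 h, and 124% and 76.8% at 96 h. Over both viruses Acsl4 was called higher than at 0 h at 12, 24, 36 and 48 h (1.57 ± 0.19 at 12 h, SE, n = 2 arrays per hour, adjusted p = 0.000125). The late virus difference was 0.24 ± 0.12 (SE, n = 4 hours, adjusted p = 0.211, 95% interval -0.03 to 0.52).

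**Figure D1:**
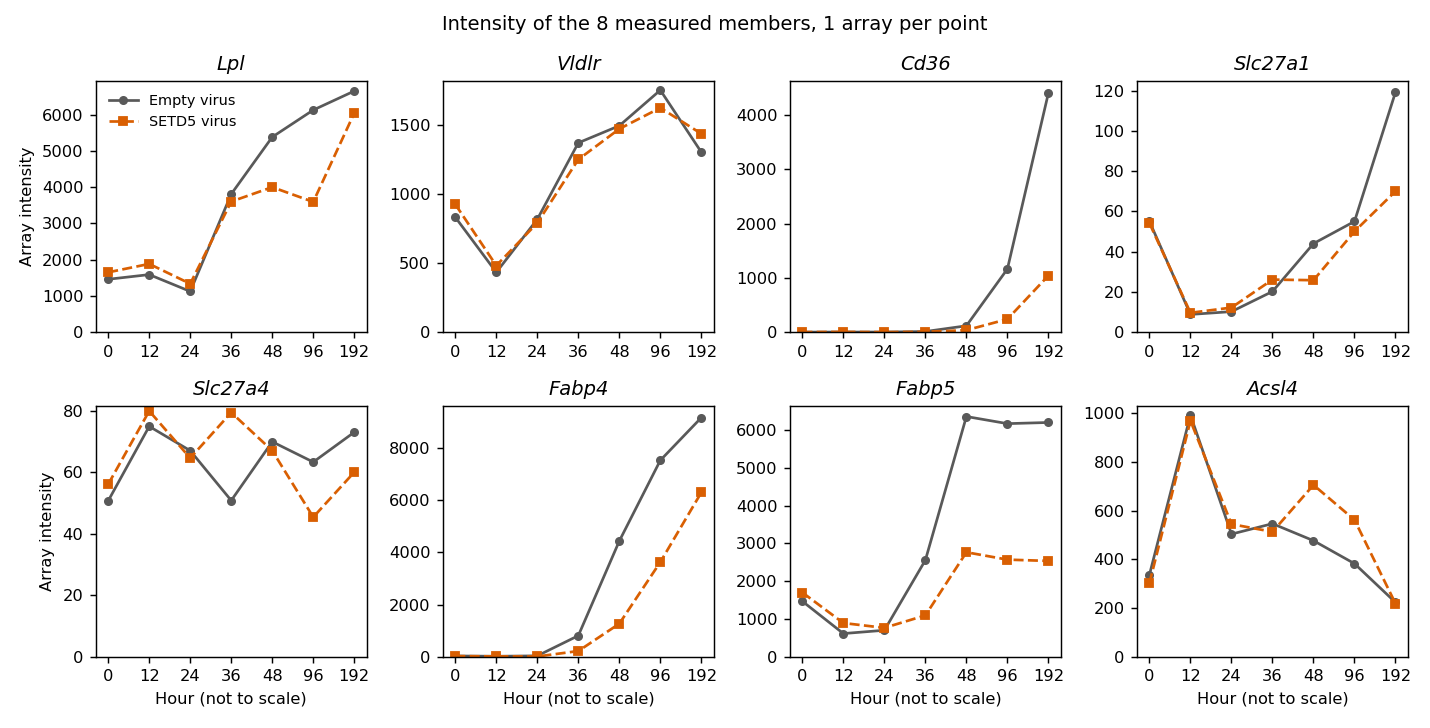
Array intensity (linear, from 0) of each of the 8 measured genes by hour of differentiation, 1 array per point, with circles and solid lines for the Empty virus and squares and dashed lines for the SETD5 virus. Each gene is shown by its probe set of the highest mean. On these sets Fabp5 and Fabp4 part between the arms from 36 h and Cd36 from 48 h, while Vldlr follows nearly 1 course in both.

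Counted together, 3 of the 8 genes were called lower with SETD5 in the late hours (Fabp4, Fabp5 and Cd36) and none was called higher, against 4.56% of all tested genes called lower and 7.43% called higher. The median late difference of the 8 was -0.31, against 0.04 over all tested genes. In the early hours none of the 8 was called by limma, where 0.023% of all genes were called higher and 0% lower. By limma, 1 of the 8 (Fabp5, higher with SETD5) was at an unadjusted p under 0.05. The share of all genes at that unadjusted level was not counted, so this 1 cannot be set against it. Over all hours 1 of the 8 was called lower and 0.887% of all genes were. Without the hour as a block, so that the change over time enters the spread, none of the 3 late calls passed (adjusted p of 0.788 for Fabp4, 0.449 for Fabp5 and 0.854 for Cd36).

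**Figure D2:**
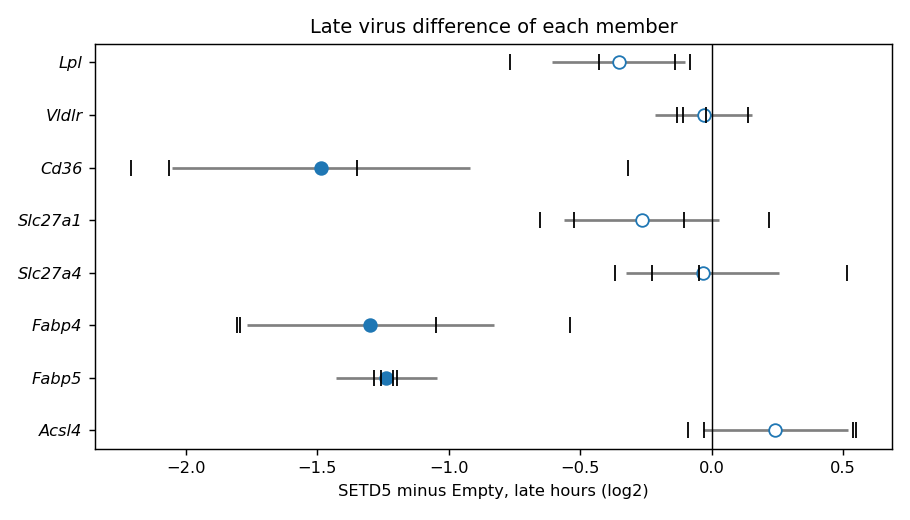
Late virus difference of each gene (log2, SETD5 minus Empty) with its 95% interval as a grey line, a filled circle where it was called and an open circle where it was not. Black ticks are the differences at 36, 48, 96 and 192 h, which for Fabp5 lie between -1.28 and -1.20.

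The virus differences had unlike courses among the 3 genes that were called. For Fabp5 the difference was 0.21, 0.53 and 0.12 at 0, 12 and 24 h and then -1.21, -1.20, -1.26 and -1.28. For Cd36 it went from -0.32 at 36 h to -1.35, -2.21 and -2.06 over the later hours. For Fabp4 it was -0.93 at 24 h and then -1.81, -1.79, -1.05 and -0.54. The gap was thus steady for Fabp5, wider at 96 and 192 h for Cd36 and, on this probe set, narrower at those hours for Fabp4. For Cd36 the offset of 16 shrinks the difference at 36 and 48 h, where 1 or both arms were under 50. Without it, SETD5 stood at 53.4%, 30.9%, 20.6% and 23.7% of Empty from 36 to 192 h. With late hours taken as 96 and 192 h alone, Cd36 was also called in the late minus early test (-2.18, adjusted p = 0.00111).

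**Figure D3:**
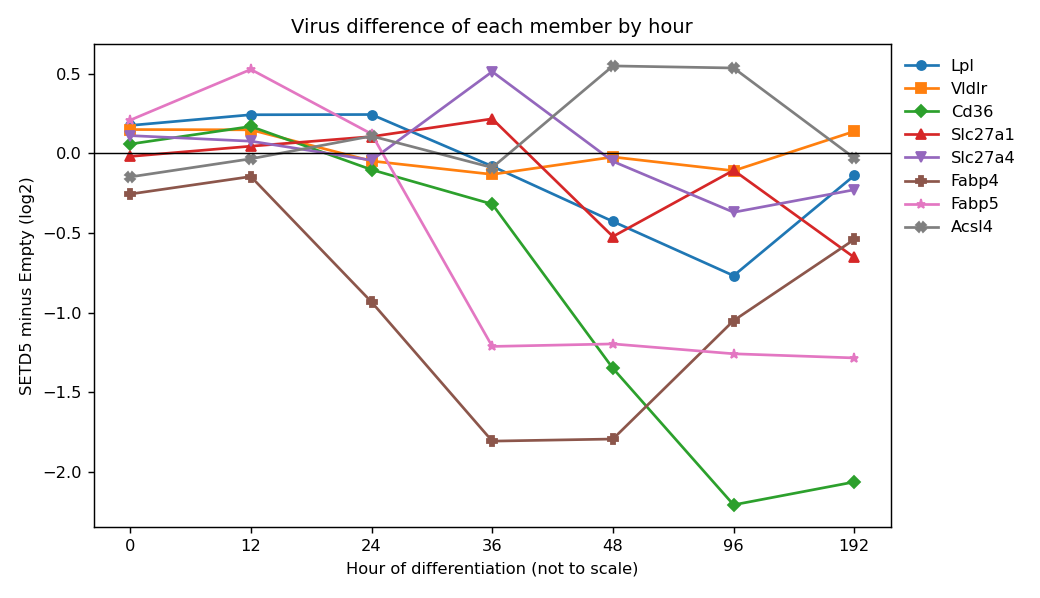
Virus difference (log2, SETD5 minus Empty) of each gene at each hour, 1 pair of arrays per point, with 0 marked as a black line. The line of Fabp5 drops between 24 and 36 h and then stays flat, that of Cd36 goes on dropping to -2.21 at 96 h, and that of Fabp4 turns back towards 0 after 48 h.

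The narrowing for Fabp4 was not shared by all its probe sets. The 8 genes had 23 probe sets, of which 21 passed the filter, and every one was also tested alone among 14412 probe sets. All 4 Fabp4 probe sets were called lower with SETD5 in the late hours, with differences of -1.30 on the brightest and -1.45, -1.83 and -1.92 on the others (adjusted p of 0.000628 to 0.0174 for these 3). At 192 h SETD5 stood at 68.7% of Empty on the brightest probe set (6296.7 and 9162) but at 35.3% (1395.4 and 3954.7), 9.43% (138.5 and 1468.5) and 8.89% (112.9 and 1269.5) on the others. From 36 to 96 h the set at 35.3% had also narrowed, from 24.6% to 46.8%, while another had gone from 45.5% to 14.7%. That 45.5% rested on intensities of 19.8 with Empty and 9 with SETD5, both under 50. The brightest set came near the highest intensity in the whole table, 9698.1; what part the intensity range has in this was not tested. The sources used here do not say which transcripts each probe set reads.

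Lpl showed the same kind of split. Its dimmer probe set gave 1210.2, 1913.7, 4124.4 and 6010.9 with Empty at 36, 48, 96 and 192 h and 881.2, 1386.1, 1408.5 and 2599.2 with SETD5. On that probe set SETD5 was at 43.2% of Empty at 192 h, against 90.8% on the brighter set, and the late difference of -0.91 ± 0.17 was called (SE, n = 4 hours, limma adjusted p = 0.0126). The Lpl result therefore depends on the probe set. The other Fabp5 probe set agreed in both tests, with a late difference of -1.65 ± 0.11 (adjusted p = 0.000628) and a late minus early difference of -1.95 ± 0.18 (adjusted p = 0.00572). The other testable Cd36 probe set gave -1.34 ± 0.27 (adjusted p = 0.0172). None of the 6 Vldlr probe sets was called in the late hours. On these 6, SETD5 stood at 83.4% to 151% of Empty at 192 h. The brightest of these carries the name ending that marks probes with possible matches to other genes. For Acsl4, 1 of 3 probe sets was called higher with SETD5 (0.45 ± 0.09, adjusted p = 0.0189) and the others were not. On the dimmest of these SETD5 was at 141% and 137% of Empty at 36 and 48 h but at 76.8% and 74.2% at 96 and 192 h.

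**Figure D4:**
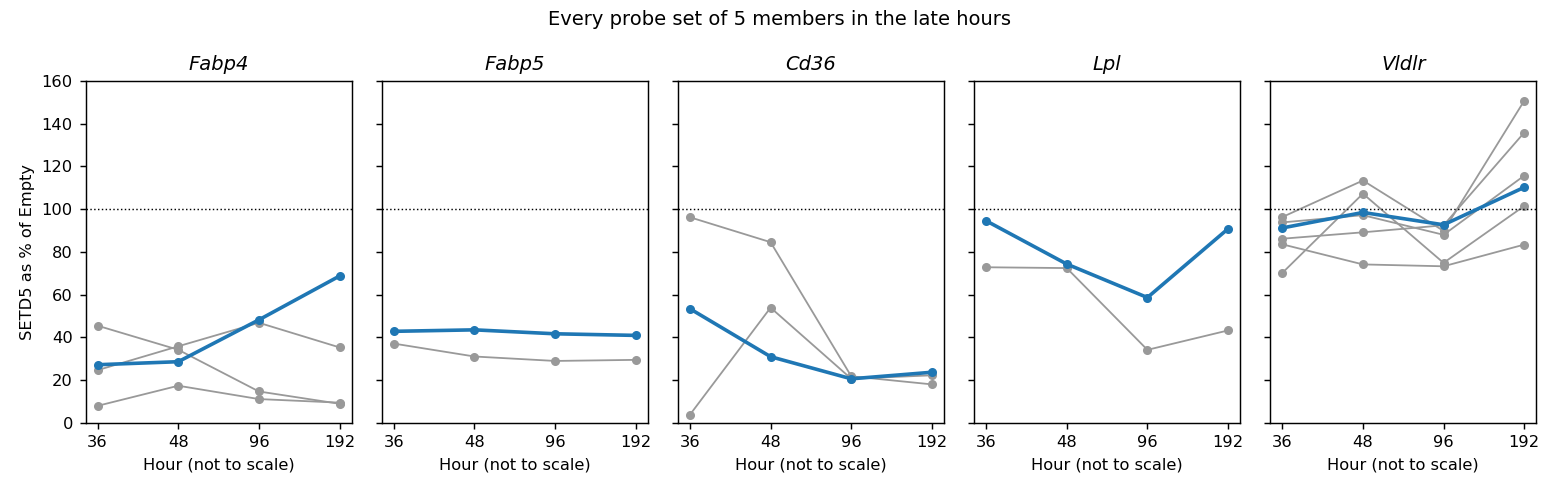
Intensity with SETD5 as a percent of that with Empty at 36, 48, 96 and 192 h for every probe set of 5 genes, 1 pair of arrays per point, with the probe set of the highest mean in blue, the others in grey and 100% dotted. At 192 h the Fabp4 sets spread from 8.89% to 68.7% and the Lpl sets from 43.2% to 90.8%, while both Fabp5 sets lie at 43.5% or less throughout. Cd36 values at 36 h rest on intensities of 11.8 or less. Those of the Fabp4 sets that stand at 8.89% and 9.43% at 192 h rest, at 36 h, on 19.8 or less. Some Cd36 and Fabp4 percents at 48 and 96 h also rest on values under 50 in 1 or both arms. The dimmest Cd36 set was under 50 with SETD5 at 192 h too (41.7).

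The course over time was tested next against 0 h. At 12 h against 0 h over both viruses 1 of the 8 was called higher (Acsl4) and 2 lower (Vldlr and Slc27a1), where 19.9% of all tested genes were higher and 27.9% lower. At 24 h 1 was higher (Acsl4) and 1 lower (Slc27a1), against 16.4% and 21.9% of all genes. At 36 h 4 were higher (Fabp4, Lpl, Vldlr and Acsl4) and 1 lower (Slc27a1), against 12.4% and 17%. At 48 h 6 were higher, Fabp5 and Cd36 having joined these 4, against 14.4%. Those last calls depended on the setting, Fabp5 being lost with quantile normalization (adjusted p = 0.0578) or no filter (0.0689) and Cd36 with an offset of 64 (0.146). At 96 and at 192 h 4 were higher (Fabp4, Cd36, Lpl and Vldlr), against 6.12% and 7.3% of all genes. Fabp5 was not called at 96 or 192 h (1.33 ± 0.46 and 1.32 ± 0.46, limma adjusted p = 0.0797 and 0.0695). The rise of Fabp5 at these hours differed between the arms, which enters that SE. It was 2.06 and 2.07 with Empty and 0.59 and 0.57 with SETD5.

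Within each arm, 96 and 192 h were set against 0, 12 and 24 h. With Empty 5 of the 8 were called higher, against 5.25% of all genes. On the log2 scale these were Fabp4 by 7.54 ± 0.72, Cd36 by 7.02 ± 0.76, Fabp5 by 2.82 ± 0.52, Lpl by 2.20 ± 0.25 and Vldlr by 1.16 ± 0.32. The Vldlr call (adjusted p = 0.0465) was lost in 8 of 15 alternatives, and that of Fabp5 without the 96 or the 192 h pair (adjusted p of 0.057 and 0.143). With SETD5 3 of the 8 were called higher, namely Fabp4 by 7.19 ± 0.72, Cd36 by 4.85 ± 0.76 and Lpl by 1.53 ± 0.25, against 0.15% of all genes. The calls of Cd36 and Lpl lay near the threshold (limma adjusted p of 0.0439 and 0.0490). They were lost in 6 and 9 of 15 alternatives. Vldlr and Fabp5 were not called with SETD5 (1.09 ± 0.32 and 1.27 ± 0.52, limma adjusted p of 0.181 and 0.274), though the Vldlr estimate was close to that with Empty. The count with SETD5 went from 0 to 6 when 1 hour was left out, 0 without 12 or 192 h and 6 without 0 h. The share of all genes called in those runs was not counted. The difference between these changes was called for none of the 8 (by limma, 0 of 8 at an unadjusted p under 0.05) and for 0% of all genes in this fit, which has no block for the hour. With the hour as a block, the same hours gave the same differences and calls for Cd36 (adjusted p = 0.00111) and Fabp5 (adjusted p = 0.000703), so these calls depend on the block. The differences in change were -2.18 ± 1.07 for Cd36, -1.56 ± 0.74 for Fabp5 and -0.35 ± 1.02 for Fabp4.

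A list of 57 other genes of lipoprotein handling, fatty acid binding, transport, activation and thioesterases had 54 with a probe set, of which 24 passed the filter. In the late hours 4 of the 24 were called lower with SETD5 and 2 higher, where 4.56% of all tested genes were lower and 7.43% higher, with a median of -0.06 against 0.04 over all tested genes. Scarb1, the HDL receptor SR-BI, was lower by 1.16 ± 0.21 (log2, SE, n = 4 hours, adjusted p = 0.0115). Its intensities at 36, 48, 96 and 192 h were 45.2, 58.2, 151.3 and 394.1 with Empty and 24.2, 31.9, 51.1 and 81.6 with SETD5. Sort1 (sortilin, a sorting receptor that also binds LPL) was lower by 0.80 ± 0.22 (adjusted p = 0.0469). It was under 50 in both arms at 36 and 48 h, with 16.9 and 15.2 for Empty and 11.4 and 11.5 for SETD5. At 96 h Empty and SETD5 gave 123.4 and 51, and at 192 h 369.9 and 104.7. Dbi, the acyl-CoA binding protein, was lower by 0.59 ± 0.15 (adjusted p = 0.0323), with 6270.1 and 2680.6 at 192 h.

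Angptl4, a secreted inhibitor of LPL, was lower by 0.42 ± 0.12 (adjusted p = 0.0471). Its intensities with Empty were 198.8, 208.3, 631.6, 1653, 1773.9, 888.4 and 766.7. With SETD5 they were 165.2, 123.9, 314.6, 1307.5, 1327, 723.1 and 491.8, below Empty at every hour. It was also the 1 gene of the list called over all hours (-0.51 ± 0.09, SE, n = 7 hours, adjusted p = 0.0212). Lrp1, a large endocytic receptor for lipoprotein remnants, was higher with SETD5 by 0.45 ± 0.10 (adjusted p = 0.0209), with 382.3 and 631.9 at 192 h. Acsl5, an acyl-CoA synthetase named here after its value was seen, was higher by 0.35 ± 0.10 (adjusted p = 0.0469), with 212.6 and 360.6 at 192 h.

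Apoc1, an apolipoprotein, had the largest late difference of the list and was not called (-1.21 ± 0.39, SE, n = 4 hours, limma adjusted p = 0.069), with 4482.5 for Empty and 568.4 for SETD5 at 192 h but 33.3 and 33.1 at 36 h. Acbd4, an acyl-CoA binding domain protein, was not called either (-0.52 ± 0.21, adjusted p = 0.119). Within the Empty arm 6 of the 24 were called higher at 96 and 192 h than at 0 to 24 h, where 5.25% of all tested genes were.

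The 2 tested genes whose log2 values followed each member most closely over the 14 arrays are given as a description, since arrays share the course of differentiation. For Cd36 these were Cidec (Pearson r = 0.99) and Retn (0.99), both of them fat cell markers. For Fabp4 they were Slc25a42 (0.95) and Cyp2f2 (0.94), and for Fabp5 Lrig1 (0.96) and Gpat3 (0.95). For Lpl they were Fgfrl1 (0.97) and Scamp2 (0.94), for Vldlr Cflar (0.98) and Myorg (0.97), and for Acsl4 Dusp14 (0.96) and Metap2 (0.95). For Slc27a1 they were Irs1 (0.97) and Spg21 (0.96), and for Slc27a4, the flattest of the 8, Vcp (0.89) and Coq10b (0.85).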

How the data were processed

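Array intensities were deposited on a linear scale, as average differences that the authors computed with the GeneChip Analysis Suite; on every array the mean after trimming 2% at each end was 100. Of 45100 probe sets 64 were controls, and no genome build applies. In all, 34944 had 1 gene symbol in the platform annotation, 932 several and 9160 none. Each gene was represented by its probe set of the highest mean, and genes at 50 or more on at least 3 of 14 arrays were tested. Values were log2(intensity + 16), fitted with limma 3.58.1 in R 4.3.3 (lmFit and eBayes, two-sided). Virus effects had the hour as a block, with 6 residual degrees of freedom over all hours and 5 for the windows; hours against 0 h had the virus as a block, and changes within an arm had no block. Pairing by hour comes from the labels. Arrays of the same hour deviated together (r of 0.71 to 0.90), but both arms share the course of differentiation, so this cannot test the pairing. Simulated data with known changes were used to test the scripts. The number of arrays limits the precision. The tested genes had a median intensity of 188.2 to 207.5 on an array. Named were the listed genes, of the other uptake genes the 5 with the largest late difference and any called among a short set of lipase and receptor genes (Angptl4 and Lrp1 were), the 2 closest patterns per member, and Pparg and Setd5. The genes, lists and tests were chosen with earlier results of these data known.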

Additional observations from a re-analysis of the deposited data

Results flagged for a closer look

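The virus difference of Fabp5 was not the same in both windows of hours. Late minus early it was -1.52 ± 0.13 (log2, SETD5 minus Empty, SE), which passed the test of the difference itself by limma (adjusted p = 0.0048). At 0, 12 and 24 h SETD5 was the higher arm at each hour and at 36, 48, 96 and 192 h the lower arm at each. The fat cell marker sum was 14.8 with Empty and 10.3 with SETD5 at 24 h and 108.4 and 19.0 at 36 h; its part in the result was not tested.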

How the results depend on the processing

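Across the alternatives run for the 8 genes (other scalings, offsets of 4 and 64, other filters, other windows, single pairs of arrays left out and no block), 1401 of 1486 values kept their direction and side of the threshold, 42 fell below it, 16 passed it and 27 changed sign, none of them called under either setting. The values kept include those that were uncalled and stayed so. Single calls were lost in anything from 0 of 15 alternatives (Fabp4, Empty over time) to 9 of 15 (Lpl, SETD5 over time). Without the hour as a block, the pairing by hour being from the labels, the count of late lower calls went from 3 to 0, that over all hours from 1 to 0 and that of late minus early from 1 to 0. Leaving out 1 pair of arrays gave 3 to 5 late lower calls (5 without 36 h, Lpl and Slc27a1 added), 0 to 1 over all hours and 0 to 2 late minus early, and 3 to 6 higher calls with Empty and 0 to 6 with SETD5 over time. Over all hours an offset of 64 gave 0 calls and no filter gave 0. With late hours of 96 and 192 h, 2 genes were called late minus early and 4 late lower (Lpl added). With SETD5 over time, scaling to a common median gave 1 call, an offset of 64 gave 1 and no filter gave 1, in place of 3. The share of all tested genes called under each of these settings was not counted, so these counts cannot be set against it. The causes were not tested. Dim genes limit the rest: Slc27a1 and Cd36 reached 50 on 6 and 5 arrays, and below 50 a difference depends on the offset. The sign changes were small. With quantile normalization they were 0.0306 (Vldlr, late), -0.0121 (Slc27a4, all hours), -0.0814 (Fabp5, 36 h against 0 h) and 0.0131 (Vldlr, difference of the change over time). With a common median they were -0.0161 and -0.0256 (Vldlr and Slc27a4, all hours), 0.0015 (Cd36, 24 h against 0 h) and 0.0008 (Slc27a1, 96 h against 0 h), and with late hours of 96 and 192 h 0.0153 (Vldlr, late). Leaving out 1 pair spanned 0 for Vldlr (-0.0872 to 0.0029 late, -0.0035 to 0.0434 over all hours, -0.1924 to 0.0551 difference of change) and Slc27a4 (-0.2155 to 0.0789 late, -0.0832 to 0.064 over all hours, -0.2646 to 0.0299 late minus early, -0.0481 to 0.1752 with Empty over time). It did so too for Lpl (-0.1655 to 0.0032 over all hours), Cd36 (-0.0213 to 0.1146 early) and Acsl4 (-0.0902 to 0.038 early, -1.2572 to 0.0446 with SETD5 over time, -0.005 to 0.5606 difference of change).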
